A study of Mus musculus with 1479 samples.

Results

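The small leucine-rich proteoglycans described here are 9 genes, *Dcn*, *Bgn*, *Aspn*, *Lum*, *Fmod*, *Prelp*, *Omd*, *Ogn* and *Podn*, chosen as members of this gene family and making up 9 of the 46517 gene rows of the count table. They were followed over 11 clusters of single bladder cells, taken from male mice aged 10 to 20 weeks. All lines were on the C57BL6 background and the sorted cells were negative for the endothelial protein CD31. Of the cells, 810 (54.8%) came from the PdgfrbGFP line, 13.7% from Cspg4dsRED, 9.94% from PdgfraGFP and 8.72% from Acta2GFP, and 190 came from C57BL6 mice without a reporter, which were sorted by antibody. In the reporter lines a fluorescent protein is driven by regulatory DNA of the named gene (in PdgfraGFP it sits in the gene itself and carries a histone tag), so each line samples the cells in which that reporter was bright enough for the sort. The Acta2GFP tissue was dissociated with added elastase.

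Small leucine-rich proteoglycans are secreted proteins of the extracellular matrix whose core is built of leucine-rich repeats. Many carry chondroitin, dermatan or keratan sulfate chains, most bind fibrillar collagens and govern how fibrils grow and pack, and several also bind growth factors of the TGF-beta family. By structure, decorin (Dcn), biglycan (Bgn) and asporin (Aspn) are placed in class I, lumican (Lum), fibromodulin (Fmod), PRELP and osteomodulin (Omd) in class II, osteoglycin (Ogn) in class III and podocan (Podn) in class V.

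The cells lay on 6 plates, and total reads ran from 50276 to 1446059 per cell with a median of 214893. Labels name no animal, so the p-values below set the difference between clusters within a mouse line against its variation over lines. The lines differed in sort and in part in plate, with Acta2GFP on a plate of PdgfrbGFP and PdgfraGFP on a plate of Cspg4dsRED. The study's methods also list mice that combine these strains, so that the lines are independent is an assumption behind every p-value. The authors had made the clusters from the same expression values, so a test between clusters tells how far a difference repeated over lines and is no independent evidence for the clusters. Cluster 10, described by the study as mural cells, consisted of 65 Cspg4dsRED, 45 PdgfrbGFP, 12 Acta2GFP and 3 C57BL6 cells. It held high levels of the 8 mural markers, with a sum of 7623 to 12756 reads per 500000 endogenous reads by line, against 63.1 to 170 in the fibroblast clusters other than 5. All 8 mural markers were called higher and all 8 fibroblast markers lower in it. Cluster 5 (76 cells), the fibroblasts beneath the epithelium in the study, had 4 of 5 sub-epithelial markers called higher. Its mural markers summed to between 435 and 751 by line, with *Acta2* called higher (log2 fold change 3.13), and their part in the results was not tested. The remaining clusters, 1278 cells pooled, had fibroblast markers that summed to between 12298 and 20064 by line, against 577 to 2002 in cluster 10. The markers were not summed for each of these clusters alone, and cluster 4 (23 cells) was left undefined in the study. Endothelial markers summed to between 12.1 and 228.2 in cluster 10 by line, against 9.31 to 22.5 in the fibroblast clusters other than 5. Immune markers reached 8.96, urothelial 33.1 and Schwann cell markers 21.1 in the highest line of cluster 10. In cluster 5 the highest lines were at 29.9 for endothelial, 34.2 for immune, 115.1 for urothelial and 3.01 for Schwann cell markers, and in the other fibroblast clusters at 22.5, 7.09, 51.5 and 11.2. The part of these cell types in the results was not tested.

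The genes lie in small groups on the genome (GRCm38, GENCODE M21). *Dcn* (ENSMUSG00000019929, chr10:97479609-97518143) and *Lum* (ENSMUSG00000036446, chr10:97565128-97572703) are neighbours on the plus strand, 46.98 kb apart. *Aspn* (ENSMUSG00000021388, chr13:49544443-49567565), *Omd* (ENSMUSG00000048368, chr13:49582462-49592822) and *Ogn* (ENSMUSG00000021390, chr13:49608046-49624501) follow each other on the plus strand with gaps of 14.9 and 15.2 kb. *Prelp* (ENSMUSG00000041577, chr1:133910304-133921414, minus strand) and *Fmod* (ENSMUSG00000041559, chr1:134037254-134048277, plus strand) point away from each other across 115.8 kb. *Bgn* (ENSMUSG00000031375) is on chrX:73483602-73495933 and *Podn* (ENSMUSG00000028600) on the minus strand of chr4:108014791-108096445. Exons of *Prelp* share 350 bases with those of the antisense gene *Gm15851*, and reads of this pair cannot be told apart in libraries without strand.

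The 250 bases before the RefSeq start (GRCm38.p6) are shown for the neighbours *Aspn*, *Omd* and *Ogn*, and for *Prelp* and *Fmod*, since the levels of these neighbours over clusters are set side by side below. Capitals mark the letters TATAAA on either strand, and overlapping matches run together. The windows are chr13:49544193-49544442 (plus), chr13:49582212-49582461 (plus), chr13:49607765-49608014 (plus), chr1:133921402-133921651 (minus) and chr1:134037004-134037253 (plus).
Aspn: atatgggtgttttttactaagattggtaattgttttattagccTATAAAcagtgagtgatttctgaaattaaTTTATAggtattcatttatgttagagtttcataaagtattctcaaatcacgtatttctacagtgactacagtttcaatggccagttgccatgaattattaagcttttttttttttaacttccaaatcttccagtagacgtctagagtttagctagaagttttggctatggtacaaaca
Omd: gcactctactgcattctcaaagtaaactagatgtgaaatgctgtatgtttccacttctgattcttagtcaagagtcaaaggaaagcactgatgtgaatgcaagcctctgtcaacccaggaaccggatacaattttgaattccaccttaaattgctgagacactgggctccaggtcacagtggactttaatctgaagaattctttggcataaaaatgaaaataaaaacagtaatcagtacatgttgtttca
Ogn: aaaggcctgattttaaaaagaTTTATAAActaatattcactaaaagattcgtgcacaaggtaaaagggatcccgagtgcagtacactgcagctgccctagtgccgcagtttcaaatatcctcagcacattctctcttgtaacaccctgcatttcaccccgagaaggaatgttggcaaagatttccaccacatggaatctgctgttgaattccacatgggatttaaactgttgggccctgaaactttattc
Prelp: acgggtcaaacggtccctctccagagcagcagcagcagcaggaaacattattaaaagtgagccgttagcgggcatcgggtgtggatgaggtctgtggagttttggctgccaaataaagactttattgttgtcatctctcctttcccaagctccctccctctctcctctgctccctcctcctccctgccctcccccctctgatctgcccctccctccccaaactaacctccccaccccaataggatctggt
Fmod: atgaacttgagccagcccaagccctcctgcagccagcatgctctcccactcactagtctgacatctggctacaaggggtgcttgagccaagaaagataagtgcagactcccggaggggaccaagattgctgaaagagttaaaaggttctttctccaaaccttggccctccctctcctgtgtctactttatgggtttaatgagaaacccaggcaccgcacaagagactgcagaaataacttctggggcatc
TATAAA was found in the windows of *Aspn* and *Ogn*, on both strands in each, and in 12.4% of all 32851 windows of the table. The windows of *Aspn* (30% G and C), *Omd* (38.4%) and *Ogn* (42%) were poorer in G and C than the median window (52.4%). GGGCGG, present in 32.7% of all windows, TGANTCA, in 6.75%, and the CArG box, in 1.47%, were in none of the 5. Of the members, 7 were in the table.

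To ask how abundant each proteoglycan transcript was in bladder fibroblasts, levels were expressed in reads per 500000 endogenous reads, taken as the mean of a line's cells, and lines were then weighted equally. Together the 9 genes took up 1.92% ± 0.237 (SD, n = 5 lines) of the endogenous reads in the fibroblast clusters other than 5, 1.53% ± 0.214 in cluster 5 (n = 4) and 0.409% ± 0.0700 in cluster 10 (n = 4). Per kilobase of the principal transcript, *Dcn* was highest in the fibroblast clusters other than 5, with a level of 2176 ± 347 (SD, n = 5), followed by *Bgn* with 1292 (3125 ± 525 reads per 500000 before division by length). *Lum* followed at 454 ± 91.03 per kilobase and *Prelp* at 222.6 ± 23.3. *Podn* (118.5 ± 21.1) and *Ogn* (88.1 ± 26.8) lay apart by little more than the SD of *Ogn*. *Fmod* had 28.6 ± 12.5 and *Aspn* 17.7 ± 3.43 per kilobase, which differed by less than the SD of *Fmod*, and *Omd* was the lowest with 5.69 ± 2.09. Divided by all exon bases, which include rarely used exons, the levels of *Dcn* and *Bgn* were 655 and 512 per kilobase, so that their order held and their distance narrowed.

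The levels of the most abundant members depended on how deeply a cell was sequenced. The cells of the fibroblast clusters other than 5 were put into 10 bins of equal size by depth. In the shallowest bin (median 70042 endogenous reads) the mean *Dcn* level was 5723 reads per 500000, and in the deepest bin (median 620485 reads) it was 1789, 31.3% of the former. *Bgn* in the deepest bin stood at 43.6% of its level in the shallowest, *Lum* at 68.1% and *Prelp* at 84.7%. These are the genes with the most reads per transcript base. A cell held a median of 0.871 *Dcn* reads per base of the principal transcript, 0.509 for *Bgn*, 0.186 for *Lum* and 0.0891 for *Prelp*, and no cell held more than 1.72 *Dcn* reads per base. Within groups of one line and cluster, the log2 of *Dcn* reads plus 1 rose by a median of 0.486 for each log2 unit of depth (range 0.443 to 0.567, 7 groups). By the same measure *Bgn* rose by 0.654, *Lum* by 0.932 and *Prelp* by 0.990. Slopes under 1 were also found in the genes with the fewest reads, *Fmod* (0.712), *Aspn* (0.684) and *Omd* (0.301). Many of their counts were at or near 0, where the 1 added before the log bears on the slope. Their levels in the deepest bin were 82.7%, 140.6% and 52.4% of those in the shallowest, in that order. Levels of *Dcn* and *Bgn* are therefore given below also at equal depth.

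**Figure D1:**
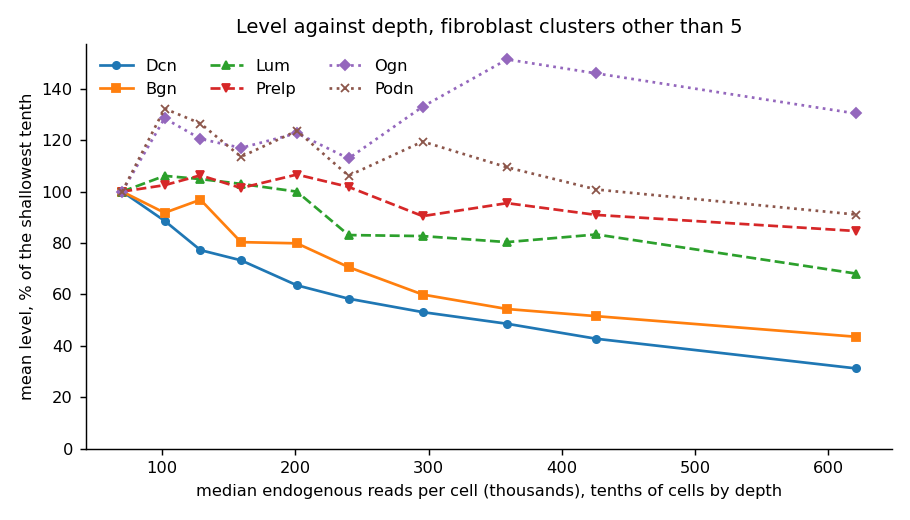
Mean level (reads per 500000) of 6 genes in 10 bins of the cells of the fibroblast clusters other than 5, ordered by depth and given in percent of the shallowest bin, against the median reads per cell. The Dcn line falls to 31.3% and the Bgn line to 43.6%, while Prelp ends at 84.7%.

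The comparison of cluster 10 with the fibroblast clusters asked which of these genes set fibroblasts apart from mural cells. In the sums per line, *Dcn*, *Lum*, *Fmod*, *Omd* and *Podn* were called lower in cluster 10 (edgeR adjusted p under 0.05 and a log2 fold change of at least 2 in size), 5 of 9 members against 4.02% of the 16092 genes tested. The study's text already names *Lum* in its short-list of fibroblast markers. That list was drawn from these cells and those of other organs with the same fold limit, so the *Lum* call is no new evidence. *Bgn* and *Prelp* were lower by less than that fold, *Ogn* did not pass, and *Aspn* was the member with a higher estimate in cluster 10. The median log2 fold change of the members was -3.44, against -0.93 for all genes tested. In 7 of 9 members every line of cluster 10 lay below every line of the fibroblasts, as in 15.6% of all genes tested. In none did every line lie above, as in 4.33% of genes.

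Among the class I genes, *Dcn*, which encodes a proteoglycan that binds collagen I fibrils and TGF-beta, had levels in cluster 10 of 81.3 in Cspg4dsRED, 180 in Acta2GFP, 520 in PdgfrbGFP and 947 in C57BL6. The fibroblast clusters of the same lines had 4087, 4119, 3466 and 2897. The groups did not overlap, and the C57BL6 mean rested on 3 cells, with levels of 21.9, 286.1 and 2532. The log2 fold change was -3.44 ± 0.49 (SE; edgeR adjusted p = 0.000102), and -3.92 ± 0.41 with all cells thinned to 50000 reads. Among cells of 100000 to 200000 reads, the *Dcn* level was 427 ± 378 (SD, n = 4 lines) in cluster 10 and 4298 ± 300 (n = 5) in the fibroblast clusters other than 5. No cell of cluster 10 reached the median fibroblast level of 3356, and each held a *Dcn* read.

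*Bgn*, which encodes the close relative of decorin, differed far less between the cell types than *Dcn*. Its levels in cluster 10 were 1012 in C57BL6, 1025 in Cspg4dsRED, 1057 in PdgfrbGFP and 1307 in Acta2GFP. In the fibroblasts of these lines they were 2618, 3768, 2537 and 3458, without overlap. Among cells of 100000 to 200000 reads, *Bgn* was at 1167 ± 253.3 in cluster 10 (SD, n = 4 lines) and 3473 ± 436 (n = 5) in the fibroblast clusters other than 5, and with thinned cells the log2 fold change was -1.79 ± 0.26. The log2 fold change of -1.50 ± 0.20 (edgeR adjusted p = 6.57e-05) was under the fold limit, and with the median gene set to 0 it was -0.57 (adjusted p = 0.107). Of the mural cells, 8 were above the fibroblast median, and 87.2% (95% Clopper-Pearson interval 80.05 to 92.5) had at least 10 *Bgn* reads at equal depth.

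*Aspn*, which encodes a collagen-binding core protein that lacks the chains of its class, ran the other way. Its levels in cluster 10 were 127.9 in Cspg4dsRED, 143.04 in Acta2GFP and 184.8 in PdgfrbGFP, and 34.1 in C57BL6, where 1 of 3 cells held all its reads. Fibroblasts of these lines had 48.9, 44.5, 35.4 and 41.7, so 3 of 4 lines were higher in cluster 10 and the groups overlapped through C57BL6. The log2 fold change was 1.28 ± 0.75 (edgeR adjusted p = 0.352) and did not pass. Without C57BL6 it was 1.79 ± 0.34 (adjusted p = 0.0254), under the fold limit. At equal depth 61 mural cells (48.8%, interval 39.8 to 57.9) held at least 10 *Aspn* reads, against 13.5% (11.7 to 15.5) of the 1272 cells of the fibroblast clusters other than 5. Some single fibroblast clusters lay close to cluster 10. Over lines, *Aspn* was at 122.5 ± 63.6 (SD, n = 4) in cluster 10, 114.7 ± 53.4 in cluster 4 and 106.1 ± 101.6 in cluster 9 (n = 2 each). It was at 80.5 ± 24.5 in cluster 8 and 77.2 ± 25.4 in cluster 6 (n = 5 each), and lower in the other fibroblast clusters. Cluster 10 was the highest cluster in 2 of its 4 lines.

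In class II, *Lum*, a keratan sulfate proteoglycan that keeps collagen fibrils thin, had 17.2 reads per 500000 in both Cspg4dsRED and C57BL6 cells of cluster 10, 41.03 in Acta2GFP and 73.2 in PdgfrbGFP. The fibroblasts had 1044, 737, 1398 and 1021. No line overlapped, and the log2 fold change was -5.01 ± 0.46 (edgeR adjusted p = 5.39e-07). *Fmod*, which encodes a collagen-binding relative of lumican, had between 0.332 and 7.88 in cluster 10 and between 73.8 and 155.9 in the fibroblasts of the same lines. No *Fmod* read was found in 89 mural cells, and the log2 fold change was -6.59 ± 1.11 (edgeR adjusted p = 0.000729). *Prelp*, which encodes a protein of basement membranes and connective tissue, was 195.2 to 423 in cluster 10 and 756 to 967 in the fibroblasts. This difference of -1.59 ± 0.35 on the log2 scale (edgeR adjusted p = 0.00732) was under the fold limit, and was -0.66 (adjusted p = 0.321) with the median gene at 0. *Omd*, known from bone matrix, had 10 reads in all of cluster 10. Its call (log2 fold change -6.95 ± 1.88, edgeR adjusted p = 0.0323) was lost without any of the 4 lines, with adjusted p from 0.0582 (without C57BL6) to 0.166 (without Cspg4dsRED; 0.104 without Acta2GFP and 0.0823 without PdgfrbGFP), and with the median gene at 0 (0.0694).

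*Ogn*, the class III gene, differed between lines of cluster 10, with 4.89 in C57BL6, 42.8 in PdgfrbGFP, 48.03 in Cspg4dsRED and 150.8 in Acta2GFP. The fibroblasts had 213.3, 248.6, 107.9 and 250, and the groups overlapped. The log2 fold change of -2.08 ± 0.79 (edgeR adjusted p = 0.113) did not pass, but did with sums per plate and line (-2.50, adjusted p = 0.00573), without a filter on low counts (-2.25, 0.0438) and with thinned cells (-2.41, 0.0419). In single cells *Ogn* was uneven, with 64 mural cells at 0 and 11 above the fibroblast median of 153.8. *Podn*, whose product binds collagen I and slows smooth muscle growth, had 1.24 in Cspg4dsRED, 3.47 in C57BL6, 3.61 in Acta2GFP and 19.7 in PdgfrbGFP. Fibroblasts had 311.2 to 473, and the log2 fold change was -6.76 ± 0.81 (edgeR adjusted p = 1.32e-05). No mural cell reached the fibroblast median of *Podn* (286.6).

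**Figure D2:**
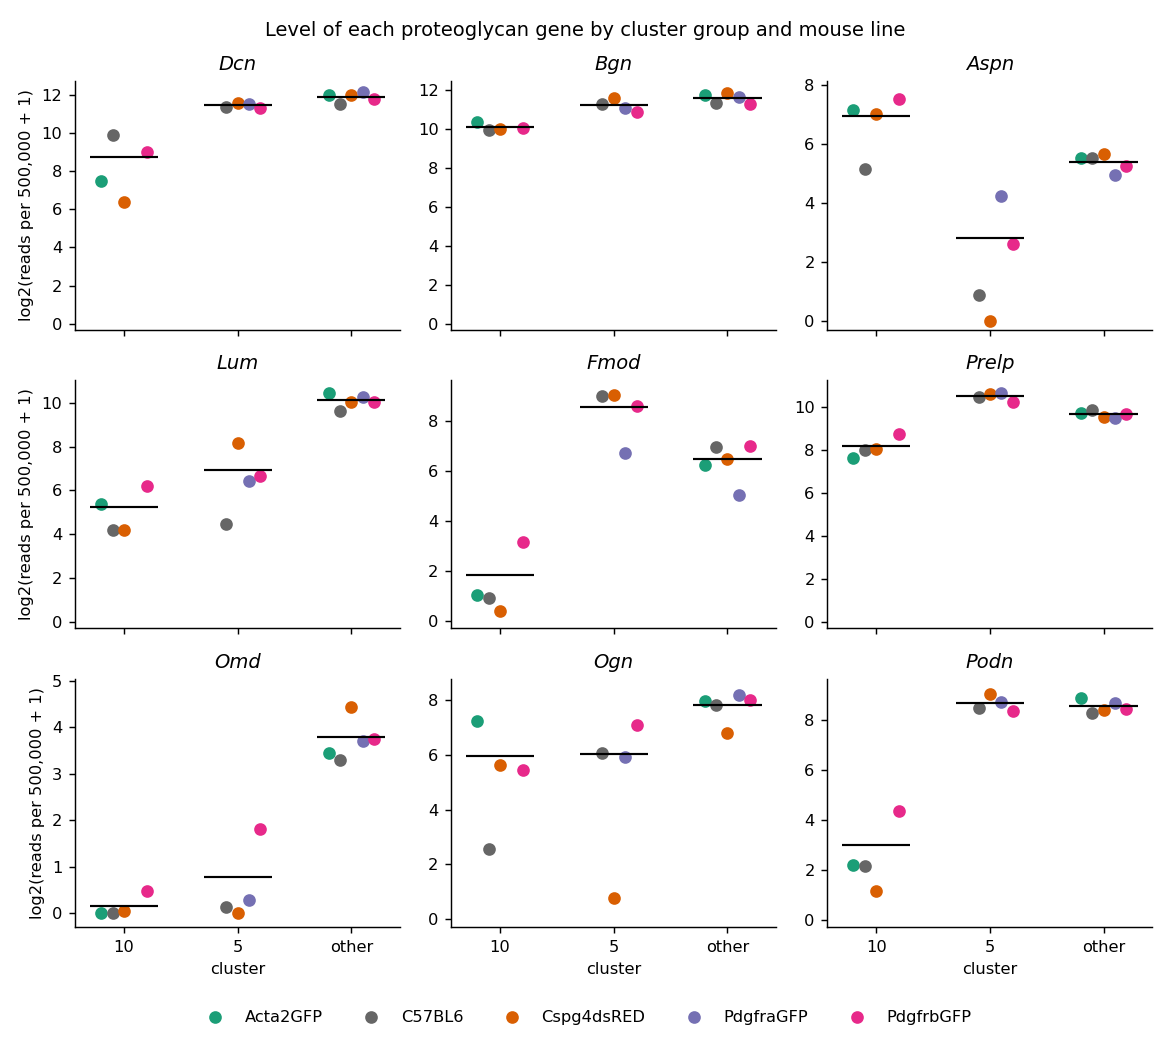
Level of each gene (log2 of reads per 500000 plus 1) in cluster 10, cluster 5 and the other fibroblast clusters, 1 point per mouse line and a bar at the log2 of the mean level over lines. Lum, Fmod and Podn points of cluster 10 lie below all points of the other fibroblast clusters, and Aspn points of cluster 10 lie above them in 3 of 4 lines.

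Reads of fibroblast genes in cluster 10 give a scale for these values. Over the 4 lines, the mean level of the 8 fibroblast markers in cluster 10 was 1.98% (*Pdgfra*) to 12.2% (*Col3a1*) of that in fibroblasts. *Omd* (0.858%), *Podn* (1.90%), *Fmod* (2.17%) and *Lum* (3.54%) stood within or below that range, and so did *Dcn* (11.9%). In these means *Bgn* (35.6%), *Prelp* (33.6%) and *Ogn* (30.1%) stood above every marker, and *Aspn* was at 287.2%. By line *Ogn* ran from 2.29% to 60.4%, *Prelp* from 23.2% to 51.8% and *Bgn* from 27.2% to 41.7%. In their highest lines *Col3a1* reached 24.7% and *Dcn* 32.7%. The part of reads from outside the cell in the low values was not tested. Across plates, *Dcn* in cluster 10 ranged within PdgfrbGFP from 224.6 (21 cells) through 745 (20 cells) to 946 (4 cells), while the fibroblasts of the same plates had 5012, 2897 and 3227.

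In cluster 5, compared with the other fibroblast clusters, *Lum* was called lower, 1 of 9 members against 0.465% of the 16145 genes tested, and no member was called higher (0.297% of genes). The members' median log2 fold change was -0.44, against -0.77 for all genes. All lines of cluster 5 lay below those of the other clusters for *Lum*, *Aspn* and *Omd* (3 of 9, against 8.78% of all genes tested), and all lay above them for *Prelp* (1 of 9, against 1.9%).

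In cluster 5 the *Lum* level was 21.1 in C57BL6, 86.1 in PdgfraGFP, 101.1 in PdgfrbGFP and 283.5 in Cspg4dsRED (3 cells), against 800, 1233, 1066 and 1061 in the other fibroblasts. This was a log2 fold change of -3.998 ± 0.45 (edgeR adjusted p = 0.00106). After thinning, 18 of 76 cells (23.7%, interval 14.7 to 34.8) held at least 10 *Lum* reads, against 97.2% (96.2 to 98.1) of the other fibroblasts. The *Lum* levels of cluster 5 overlapped those of cluster 10. *Prelp*, also of class II, had 1188 to 1607 against 718 to 928, a log2 fold change of 0.79 ± 0.16 (edgeR adjusted p = 0.0507), and 1.56 ± 0.16 (adjusted p = 0.000365) with the median gene at 0. At equal depth all 76 cells of cluster 5 held at least 10 *Prelp* reads, as did 95% of the other fibroblasts. *Fmod* had 105.01 in PdgfraGFP, 388 in PdgfrbGFP, 510 in C57BL6 and 531 in Cspg4dsRED, and each line exceeded its own other fibroblasts, which had 32.4, 126.3, 124.96 and 88.3. The groups overlapped between lines, and the log2 fold change of 1.86 ± 0.36 (edgeR adjusted p = 0.0349) was under the fold limit. It passed with the median gene at 0 (2.62), without PdgfraGFP (2.04) and without PdgfrbGFP (2.15).

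*Aspn* and its chromosome 13 neighbours did not pass in cluster 5. *Aspn* had 0 in Cspg4dsRED, 0.821 in C57BL6, 5.04 in PdgfrbGFP and 17.95 in PdgfraGFP, against 29.7 to 50.001 in the other fibroblasts, with a log2 fold change of -4.47 ± 1.28 (edgeR adjusted p = 0.170). *Omd* held 35 reads in 76 cells (-5.61 ± 1.59, adjusted p = 0.168). *Ogn* had 0.697 in Cspg4dsRED, 59.04 in PdgfraGFP, 65.4 in C57BL6 and 133.9 in PdgfrbGFP, against 110 to 290 (-2.61 ± 0.77, adjusted p = 0.180). On 1 of the 3 plates of PdgfrbGFP, with 7 cells of cluster 5, *Ogn* (281.5 against 198.5) and *Omd* (10.9 against 9.20) stood above the other fibroblasts of that plate. None of the 3 was called in these sums, while *Ogn* passed with thinned cells (-2.42, adjusted p = 0.00960), without a filter (-2.75, 0.0220), without C57BL6 (-3.17) and without PdgfrbGFP (-3.24), and *Aspn* with sums per plate and line (-3.83, 0.0291). DESeq2 called *Aspn* (-4.37 ± 0.95, adjusted p = 0.000209) and *Omd* (-5.37 ± 1.08, adjusted p = 4.21e-05) lower. The share of all genes called lower in cluster 5 was 6.76% with DESeq2, 1.68% with thinned cells, 0.487% without a filter and 2.07% with sums per plate and line. *Dcn* (2523 to 3080 against 2922 to 4462) and *Bgn* (1893 to 3176 against 2569 to 3781) had log2 fold changes of -0.42 ± 0.11 and -0.44 ± 0.12, which turned to 0.35 and 0.33 with the median gene at 0. With thinned cells they were -0.68 ± 0.16 and -0.58 ± 0.17. *Podn* stood at 407 ± 89.9 against 351 ± 44.97 (SD, n = 4) and a log2 fold change of 0.13 ± 0.23, of either sign over the settings tried.

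**Figure D3:**
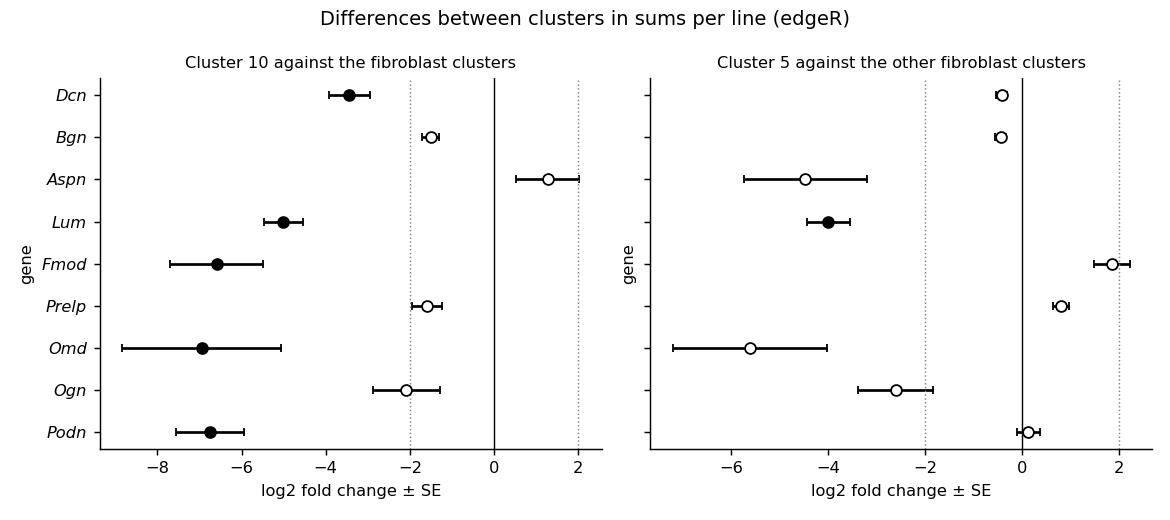
Log2 fold change with its SE of each gene in cluster 10 against the fibroblast clusters (left) and in cluster 5 against the other fibroblast clusters (right), from sums per line in edgeR. Filled points were called and dotted lines mark the fold limit of 2. On the left Dcn, Lum, Fmod, Omd and Podn are filled, on the right only Lum.

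Among the other 9 fibroblast clusters, each compared with the rest of them, 1 member was called by edgeR, *Podn*, which was higher in cluster 1, and DESeq2 did not call it. For these comparisons a call needed a log2 fold change of at least 1. The share of all genes called was 0.0433% in cluster 1, 0.00647% in cluster 2, 0.00608% in cluster 3, 0.746% in cluster 4 and 0.0246% in cluster 6. It was 0.407% in cluster 7, 0.0183% in cluster 8, 0.0454% in cluster 9 and 0.0209% in cluster 11. *Podn* in cluster 1 had 517 in PdgfrbGFP, 680 in C57BL6, 1077 in PdgfraGFP and 1096 in Acta2GFP, and in each of these 4 lines cluster 1 was the cluster with the highest *Podn*. The log2 fold change was 1.23 ± 0.14 (edgeR adjusted p = 0.00966), and 1.35 ± 0.53 in DESeq2 (adjusted p = 0.121). It was also called with median-of-ratios scaling (0.068% of all genes called) and with sums per plate and line (0.072%). In the same cells *Aspn* was at 5.70 ± 5.54 (SD, n = 4), the lowest of all clusters, with a log2 fold change of -3.27 ± 1.01 that edgeR did not call (adjusted p = 0.493) and DESeq2 did (-3.16 ± 0.88, adjusted p = 0.0211), where DESeq2 called 3.42% of all genes. DESeq2 also called *Aspn* (-2.67) and *Fmod* (-3.37) in cluster 2, where it called 14.1% of all genes, and *Fmod* (-1.23) in cluster 3, where it called 1.19%. With sums per plate and line edgeR also called *Fmod* in cluster 2 (-3.33, adjusted p = 0.0433), and 9.13% of all genes.

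In clusters 7 and 8 no member was called in the sums per line scaled by TMM, the edgeR normalization used throughout, while other settings gave calls. In cluster 7, *Lum* ran from 505 in C57BL6 to 823 in Acta2GFP (-0.79 ± 0.07, edgeR adjusted p = 0.00220) and *Bgn* from 1798 to 3247 (-0.49 ± 0.06, 0.0163), both under the fold limit of 1. *Fmod* ran from 0.298 in Cspg4dsRED to 17.8 in Acta2GFP (-3.43 ± 0.72, adjusted p = 0.118) and *Ogn* from 21.1 to 182.8 (-1.89 ± 0.33, 0.0560). DESeq2 called *Fmod*, *Ogn* and *Omd* in cluster 7, 3 of 9 where it called 4.9% of all genes. With sums per plate and line, edgeR called *Fmod* (-3.87, adjusted p = 0.0186) and *Ogn* (-1.86, adjusted p = 0.00257) there, and 1.93% of all genes. In cluster 8, *Ogn* had 276.3 in Cspg4dsRED, 469 in PdgfrbGFP, 482 in C57BL6, 513 in Acta2GFP and 754 in PdgfraGFP, and was the highest of all clusters in 4 of 5 lines (1.45 ± 0.19, edgeR adjusted p = 0.0643). *Fmod* ranged from 138.1 to 619 in it (2.83 ± 0.48, adjusted p = 0.166) and *Aspn* from 59.6 to 122.3 (1.26 ± 0.30, adjusted p = 0.483). DESeq2 called these 3 genes in cluster 8, where it called 4.78% of all genes. With median-of-ratios scaling edgeR called *Ogn* (1.59, adjusted p = 0.0301) and 0.0487% of all genes.

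The range of levels over the fibroblast clusters differed between the members. Between the lowest and the highest cluster mean *Bgn* differed by 1.66-fold (clusters 4 and 3), *Dcn* by 1.73-fold (5 and 2) and *Prelp* by 2.53-fold (7 and 5). Among cells of 100000 to 200000 reads the range was 1.72-fold for *Dcn* (clusters 5 and 2) and 1.85-fold for *Bgn*, there between clusters 4 and 9 with 1 line each, and the part in these folds of reads that rose less than in proportion to depth was not tested. *Podn* differed by 4.23-fold (4 and 1), *Ogn* by 7.70-fold (5 and 8) and *Lum* by 11.9-fold (5 and 11). Each cluster mean covers the lines with 3 or more cells in it, so these folds in part compare different lines. Clusters 4 and 1 shared only PdgfrbGFP, where *Podn* was at 305.1 and 517. Clusters 5 and 11 shared C57BL6, with *Lum* at 21.1 and 733, and PdgfrbGFP, with 101.1 and 2143. *Aspn* (20.1-fold, clusters 1 and 4), *Fmod* (37.99-fold, 7 and 5) and *Omd* (62.3-fold, 5 and 4) spanned the widest ranges at the lowest levels. The *Omd* mean of cluster 5 rested on PdgfrbGFP, and without that line the folds between the same clusters were 444 for *Omd*, 10.2 for *Podn* and 12.1 for *Ogn*. This *Omd* fold divides by a level of 0.107, close to no reads. Without PdgfrbGFP, cluster 4 was Cspg4dsRED alone (17 cells). That line had no cells in cluster 1, so this *Podn* fold sets different lines side by side. When the 11 clusters were put in order of level, most neighbours differed by less than the larger of their SDs between lines. All 10 steps were within the SD for *Lum* and *Omd*, 9 for *Dcn*, *Bgn* and *Aspn*, 8 for *Fmod*, *Ogn* and *Podn* and 7 for *Prelp*. The step down to cluster 10, as the lowest, was wider than the SD for *Dcn*, *Bgn*, *Fmod*, *Prelp* and *Podn*. Clusters 4 and 9 had 3 or more cells in 2 lines each, and *Dcn* was highest in cluster 2, which was also among the shallowest (median 109301 reads). Cluster 4, an end of the range for *Bgn*, *Podn*, *Aspn* and *Omd*, was left undefined in the study. It also had the fewest genes with reads per cell (median 2405) of all clusters.

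**Figure D4:**
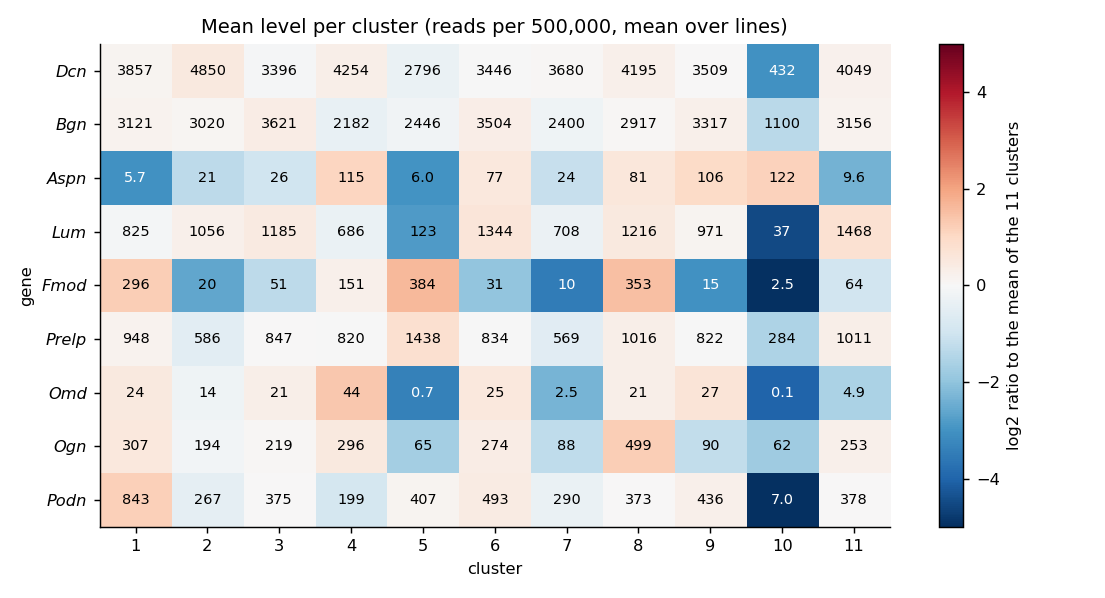
Mean level (reads per 500000, mean over lines) of the 9 genes in the 11 clusters, printed in each cell, with colour for the log2 ratio to the mean of the 11 clusters of that gene after adding 1 to each. The column of cluster 10 is blue for all genes but Aspn, and the Podn value of cluster 1 (843) is the highest in its row.

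Between reporter lines, levels in the fibroblast clusters other than 5 differed by 1.29-fold for *Prelp* up to 3.90-fold for *Fmod*. *Prelp* ran from 718 (PdgfraGFP) to 928 (C57BL6), *Bgn* from 2569 (PdgfrbGFP) to 3781 (Cspg4dsRED), and *Dcn* from 2922 (C57BL6) to 4462 (PdgfraGFP). The C57BL6 and PdgfrbGFP lines, with median depths of 292807 and 272423 reads, had the lowest *Dcn*, and among cells of 100000 to 200000 reads *Dcn* ran from 3878 to 4649 over the lines. Among the latter cells *Bgn* was lowest in C57BL6 (2963), with 3217 in PdgfrbGFP, and highest in Cspg4dsRED (4111). *Fmod* (32.4 in PdgfraGFP to 126.3 in PdgfrbGFP) and *Ogn* (110 in Cspg4dsRED to 290 in PdgfraGFP) had the widest folds between lines, 3.90 and 2.63. The lines also differed in their clusters. Most Cspg4dsRED cells lay in cluster 9, which held no PdgfraGFP cells, and the part of this in the folds was not tested. In cluster 2 *Ogn* was higher in Cspg4dsRED (312.8) than in PdgfraGFP (131.02). In clusters 6, 7 and 8 *Ogn* was lower in Cspg4dsRED, with 231.4, 21.1 and 276.3 against 329.5, 120.7 and 753.5. For *Bgn*, *Dcn*, *Prelp*, and *Aspn* the spread between the 3 plates of PdgfrbGFP alone was wider than that between lines (2.32-fold against 1.47-fold for *Bgn*). On the plate shared by Acta2GFP and PdgfrbGFP, *Lum* was 1398 and 1404 and *Fmod* 73.8 and 150. On the plate shared by Cspg4dsRED (9 cells) and PdgfraGFP, *Fmod* was 137.2 and 32.4, *Aspn* 143.6 and 29.7, *Omd* 77.4 and 12.1 and *Lum* 1219 and 1233. Within single clusters of these plates the gaps closed or widened. On the former plate *Fmod* was at 39.8 and 43.2 in cluster 3 and at 139.7 and 507 in cluster 8. In cluster 8 of the latter (4 and 19 cells) *Aspn* was at 78.5 and 80.1, *Fmod* at 308.7 and 138.1, *Omd* at 82.5 and 9.70 and *Bgn* at 4946 and 1812. On these plates line and sort cannot be told apart.

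The share of cells with reads of a gene depends on its level, on depth and on the count asked for. After thinning to 50000 reads, which left out 6 cells, at least 10 reads were found in 100% of cells of the fibroblast clusters other than 5 for *Dcn* (1272 of 1272) and in 99.8% for *Bgn*. The share was 72.3% (interval 69.8 to 74.8) for *Podn*, 61.7% (58.98 to 64.4) for *Ogn* and 18.2% (16.2 to 20.5) for *Fmod*, while *Omd* had 4.01% (3.00 to 5.24). Without thinning, at least 1 read was found in 65.6% of these cells for *Fmod* and in 28.5% for *Omd*. In cluster 10, at least 10 reads after thinning were found in 42.4% of cells for *Dcn* (33.6 to 51.6), in 55.2% for *Prelp* (46.05 to 64.1) and in 0.8% for *Podn* (0.0203 to 4.38). *Fmod* and *Omd* had 10 reads after thinning in 0 cells of cluster 10, so the share may be as high as 2.40% by the limit of 3 cells, or 2.91% by the Clopper-Pearson interval. In cluster 5, 38 of 76 cells (50%, interval 38.3 to 61.7) held at least 10 *Fmod* reads. The median *Fmod* level of these cells differed by line, with 0 in PdgfraGFP (22 cells), 135.3 in PdgfrbGFP (36), 486 in C57BL6 (15) and 751 in Cspg4dsRED (3).

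**Figure D5:**
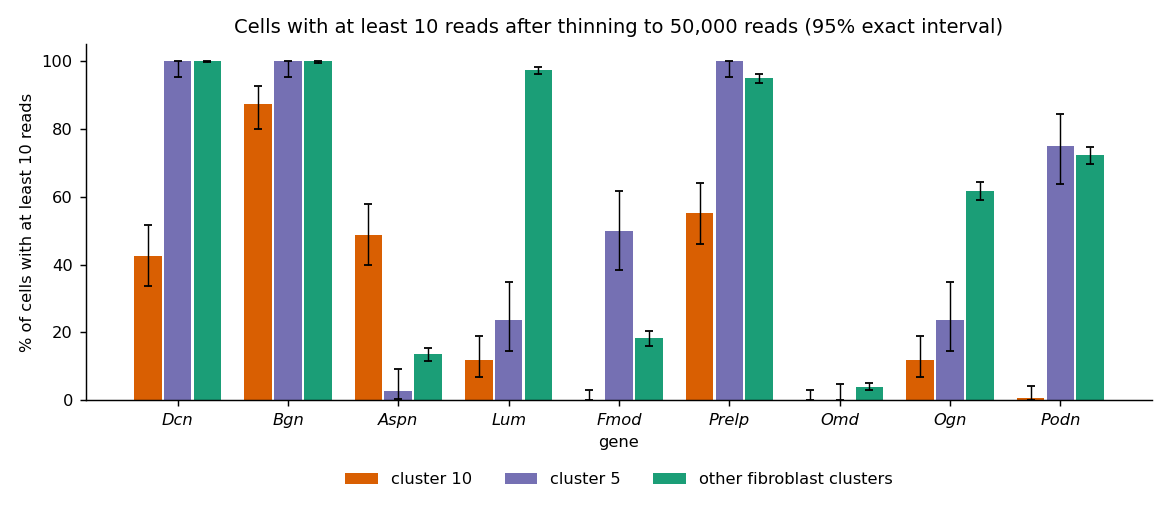
Percent of cells with at least 10 reads of each gene after thinning to 50000 reads, with exact 95% intervals, in cluster 10, cluster 5 (76) and the other fibroblast clusters (1272). Lum falls from 97.2% in the other fibroblasts to 23.7% in cluster 5, and Aspn is at 48.8% in cluster 10 and 13.5% in the other fibroblasts.

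Within a line the members were only weakly related from cell to cell. Over the cells of the fibroblast clusters other than 5, the 36 pairs had a mean Pearson r (log2 of level plus 1, averaged over 5 lines) between -0.13 and 0.30. *Lum* and *Bgn* had the highest, 0.30 (0.18 to 0.40 over lines), followed by *Ogn* with *Aspn* (0.20, 0.13 to 0.30) and *Fmod* with *Prelp* (0.20, 0.13 to 0.30). *Dcn* and its neighbour *Lum* had 0.04 (-0.15 to 0.22). *Dcn* and *Podn* had -0.13 and were below 0 in all 5 lines. Such values share the depth of each cell, on which the *Dcn* level depends.

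Over 35 groups of one line and one cluster with at least 5 cells, the patterns of *Fmod* and *Prelp* were alike, with r = 0.77, and 0.71 without cluster 10 (32 groups). *Dcn* and *Lum* had 0.75, and 0.51 without cluster 10, and *Dcn* and *Podn* 0.89 and -0.10. Of the chromosome 13 neighbours, *Ogn* and *Omd* had 0.53 and 0.46, *Aspn* and *Ogn* 0.27 and 0.48, and *Aspn* and *Omd* -0.06 and 0.14, each pair of values with and without cluster 10. These groups share lines, plates and depth. The genes most like *Dcn* by this measure were *Rnase4* (r = 0.97), *Selenop* (0.93) and *Serpinf1* (0.93), with 0.57, 0.40 and 0.40 without cluster 10. For *Lum* they were *Fmo2* (0.93), *Dpep1* (0.91) and *C7* (0.91), with 0.89, 0.84 and 0.84 without cluster 10, and for *Bgn* *Dpep1* (0.84), *Smoc2* (0.84) and *Sparc* (0.83), with 0.69, 0.67 and 0.66. *Podn* was closest to *Col3a1* (0.93), *Mmp2* (0.93) and *Ltbp4* (0.92), with 0.67, 0.46 and 0.46 without cluster 10. *Prelp* was closest to its antisense partner *Gm15851* (0.94), then *Creb3l1* (0.82) and *Col1a1* (0.81), with 0.89, 0.59 and 0.59 without cluster 10, and *Fmod* to *Med12l* (0.83), *Fam180a* (0.78) and *Prelp* (0.77). The closest gene was *Igf1* for *Ogn* (0.79), *Apod* for *Omd* (0.80) and *Btg2* for *Aspn* (0.76).

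Other genes of the family were read in fewer of the bladder cells than most members. *Ecm2*, next to *Aspn* on chromosome 13, had 24701 reads in 775 cells and *Tsku*, which encodes a secreted modulator of BMP and Wnt signals, 14137 reads in 610 cells, both above *Omd* (8122 reads in 384 cells). *Chad* had 4037 reads, *Epyc* 1406, and *Optc*, *Nyx*, *Kera* and *Podnl1* 358 or fewer each. Of 6 of these genes tested in cluster 10, *Tsku* was called lower (-5.60 ± 1.62, edgeR adjusted p = 0.0449), against 4.02% of all genes, and none higher (2.17% of all genes). Their median was -2.34, against -0.93 for all genes. In cluster 5, none of 5 tested was called, where 0.465% of all genes were called lower and 0.297% higher.

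Of 30 genes whose products build the sulfated chains, 27 were tested in cluster 10, and *Chpf* (chondroitin polymerization, -2.58 ± 0.69) and *Xylt1*, which starts chains on core proteins, were called lower (edgeR adjusted p = 0.0308 and 0.0467, in that order), 2 of 27 against 4.02% of all genes. *Xylt1* had 734 reads in all cells and none in cluster 10, so no fold is given. *B3gnt2*, which extends poly-N-acetyllactosamine chains, was called higher (3.05 ± 0.64, adjusted p = 0.00539), where 2.17% of all genes were. The list's median was -2.83, also with *Xylt1* at the limit that 3 reads set, and in cluster 5 none of 26 tested was called. Collagens, receptors and proteases that act with small leucine-rich proteoglycans were lower in cluster 10 in part, with 15 of 29 tested called lower (4.02% of all genes), a median of -3.15 and none called higher (2.17% of all genes). Among them were *Pcolce2*, an enhancer of procollagen processing (-5.94 ± 0.88), the gelatinase *Mmp2* (-5.84 ± 0.52), *Col14a1* (-4.99 ± 0.52), *Bmp1*, which cleaves procollagens and probiglycan (-4.45 ± 0.97), and *Egfr* (-4.02 ± 1.17). In cluster 5, *Col12a1* (4.12 ± 0.34, edgeR adjusted p = 0.000249) and *Col6a3* (2.34 ± 0.44, 0.0296) were called higher and *Pcolce2* lower (-6.49 ± 0.74, 0.00119), 3 of 30 tested, against 0.297% of all genes called higher and 0.465% lower. *Col1a1*, *Col1a2* and *Col5a1* are also named as fibroblast markers in the study's text. *Col1a1*, *Col1a2* and *Col3a1* are among the fibroblast markers used here.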

How the data were processed

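The samples were single-cell Smart-seq2 libraries, which carry no molecular identifiers. Reads (single, 50 bases in the study's methods) were mapped by the authors to GRCm38 with TopHat2, reads termed doublets were removed with samtools, and the deposited values are raw counts per gene and cell from featureCounts. Strand setting and annotation release were not given in the sources used here. GENCODE M21 gave symbols for 46005 of 46517 gene rows. Spike-in rows (92) were left out of depths.

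Counts were summed per mouse line and cluster class (at least 3 cells each) and tested in edgeR 4.0.16 (filterByExpr, TMM, quasi-likelihood) with the line as a block, Benjamini-Hochberg over all genes tested. The SE is the log2 fold change divided by the root of the F statistic. DESeq2 1.42.0 and the other settings of the closing section were alternatives. The fits were also run on simulated data, and the outcome is not reported here. Intervals are Clopper-Pearson and cover counting error only, as does the limit of 3 counts. Similar genes were ranked among those with a mean level of at least 5. Members, gene lists and markers were chosen with earlier results of these data known. Named genes are the members, up to 5 called genes per list and direction, and the 3 genes most like each member. R 4.3.3, Python 3.11.15, numpy 2.4.6, pandas 2.3.3, scipy 1.17.1 and matplotlib 3.10.9 were used.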

Additional observations from a re-analysis of the deposited data

Results flagged for a closer look

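In 27 groups of 4 or 5 lines, 1 line stood far from the others in 5, where chance flags about 1 group in 20. *Bgn* in cluster 10 was 1310 reads per 500000 in Acta2GFP, against 1010 to 1060 in the other 3 lines. PdgfrbGFP was the highest line in the other cases, all at low levels. In cluster 10 it had 7.88 for *Fmod* (others 0.332 to 1.05), 19.7 for *Podn* (others 1.24 to 3.61) and 0.394 for *Omd* (others 0 to 0.0372), and in cluster 5 it had 2.51 for *Omd* (others 0 to 0.223). The part of depth, plate or sort in these values was not tested.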

How the results depend on the processing

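Members called lower in cluster 10 numbered 4 to 6 under every setting, against 5, with 4 whichever line was left out and 5 without the replicate block (the line as a term). *Dcn*, *Lum*, *Fmod* and *Podn* were called in all of them. All genes called in this comparison, 2.14% of the 46517 gene rows, became 6.42% with DESeq2, 5.26% with sums per plate and line, 3.17% without the replicate block and 0.963% to 1.92% without a line (0.963% without Cspg4dsRED, 1.1% without PdgfrbGFP, 1.2% without Acta2GFP). In cluster 5, 1 member became 2 with thinned cells, with the median gene at 0, without a low-count filter and with sums per plate and line, 3 with DESeq2, and 1 to 3 without a line (2 without C57BL6 or PdgfraGFP, 3 without PdgfrbGFP). *Lum* was called in each. Genes called there, 0.264% of the rows, became 3.01% with DESeq2, 0.692% with thinned cells, 0.428% without a filter, 1.06% with sums per plate and line, 0.731% without the replicate block and 0.187% to 0.445% without a line (0.445% without Cspg4dsRED). Over the other 9 clusters, 1 member (*Podn* in cluster 1) became 10 with DESeq2, *Podn* not among them, 2 with median-of-ratios scaling and 4 with sums per plate and line, for which cluster 4 had too few groups. In cluster 5, log2 fold changes turned sign for *Dcn* (0.35) and *Bgn* (0.33) with the median gene at 0, which takes the median of all genes there (-0.77) from each gene and so fixes both signs, and for *Podn* with sums per plate and line (-0.07) and thinned cells (-0.1). The cause of the other changes was not tested. Of the members' recomputed log2 fold changes in clusters 10 and 5, 13 passed newly, 5 were lost, 4 turned and the others kept their sign and side of the limits. Without thinning, 16 of 27 shares of cells moved beyond their interval, and 6 levels moved by over 1 SD, while 120 did not, under 2 other ways of averaging. Cells of equal depth and all exon bases were chosen after seeing the data. Lines with 3 cells in a cluster, levels of *Dcn* and *Bgn* that fell with depth, and counts near 0 for *Omd* limit these values.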

Other observations

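In cluster 10 the link of *Dcn* to the contractile gene *Myh11*, both as log2 of level plus 1, differed between plates. Pearson r was -0.85 in PdgfrbGFP on 1 plate (20 cells), 0.15 in the same line on another (21 cells), -0.35 in Cspg4dsRED on 1 plate (49 cells) and 0.15 on the other (16 cells). *Lum* had -0.78, 0.32, -0.18 and 0.27 in the same order. With *Acta2*, another contractile gene, *Dcn* had -0.05, -0.12, 0.18 and 0.30, and *Lum* -0.07, -0.02, -0.0049 and 0.06, so the strong link on the first plate was not seen with that gene. The cells of a plate share line, sort and free RNA, and these groups were looked at after their values were seen.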
